A study of Caenorhabditis elegans with 6 samples.

Results

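The cytochrome P450 genes of *C. elegans* were compared between *folr-1(syb4116)* mutants and N2 animals. Members were the genes of the count table whose WBcel235 symbol begins with *cyp-*, together with *daf-9*, a P450 gene named for its mutant phenotype. The rule used no measured value, but it was set with earlier results of these data known. The rule found 75 genes among the 46661 genes of the table, 74 of them with a *cyp* symbol that fall into 25 subfamilies. The *folr-1(syb4116)* animals carry a CRISPR/Cas9-made allele of the folate receptor gene with an early stop codon, and this is a single strain outcrossed to N2. N2 (Bristol) was the wild-type. Both strains were grown from synchronized L1 larvae at 20 °C on *E. coli* HT115 with the empty RNAi vector, and whole L4 larvae were the source of RNA, with 3 biological replicates of each strain. Expression of *folr-1* itself fell by 2.02 on the log2 scale in *folr-1(syb4116)* (adjusted p = 4.99e-04, edgeR's quasi-likelihood test), with 14, 11 and 7 reads in the mutant, against 32, 37 and 59 reads in N2.

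Cytochrome P450s are haem enzymes that insert an oxygen atom into lipophilic substrates. Most of them, but not mitochondrial P450s, draw electrons from NADPH through a shared reductase, which in *C. elegans* is EMB-8. In the worm they take part in detoxification, fat storage, the making of epoxy and hydroxy derivatives of polyunsaturated fatty acids, eggshell formation and steroid hormone synthesis, and the intestine is a main site of their expression. Several subfamilies lie as tandem copies on chromosomes II, III, V and X, so that neighbouring members are often close relatives.

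Read counts per gene were the starting values. Libraries held between 21646678 and 25946226 counts, and 71 to 73 members had at least 1 count in a given library. Levels between genes are given as FPKM, the authors' values scaled by gene length and library size, and levels between strains as CPM, the count relative to the library size after scaling with edgeR's TMM factors. Counting does not resolve identical stretches of close paralogues, and how reads that mapped to several places were treated is not given in the sources used here. Values for tandem copies are therefore uncertain to that extent.

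Of the 75 members, 52 had enough counts to be tested, and the 23 others did not pass the filter on low counts. The tested members spanned mean levels of 0.286 to 105 FPKM over the 6 libraries, with a median of 4.29 FPKM, while no untested member exceeded 0.247 FPKM. A mean of at least 10 FPKM was found for 13 members and of at least 1 FPKM for 44 members. The level was dominated by *cyp-13A6*, at 113 ± 8.17 FPKM in *folr-1(syb4116)* and 97.2 ± 9.09 FPKM in N2 (SD, n = 3 each), 3.09 times the next member when averaged over all libraries. The next members were *cyp-35A2* with 36.6 ± 1.20 FPKM in *folr-1(syb4116)* and 31.4 ± 4.11 FPKM in N2, and *cyp-35C1* with 29.9 ± 0.647 FPKM in *folr-1(syb4116)* and 27.4 ± 3.98 FPKM in N2 (SD, n = 3 each). Below them lay *cyp-31A2*, *cyp-31A5*, *cyp-37A1*, *cyp-31A3*, *cyp-14A5*, *cyp-29A2* and *cyp-44A1*, with mean levels of 20.8 to 12.8 FPKM. Most neighbours in this order overlapped in their library values. The exceptions, where no library overlapped, were the steps below *cyp-13A6*, below *cyp-35C1* and between *cyp-37A1* and *cyp-31A3*.

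**Figure D1:**
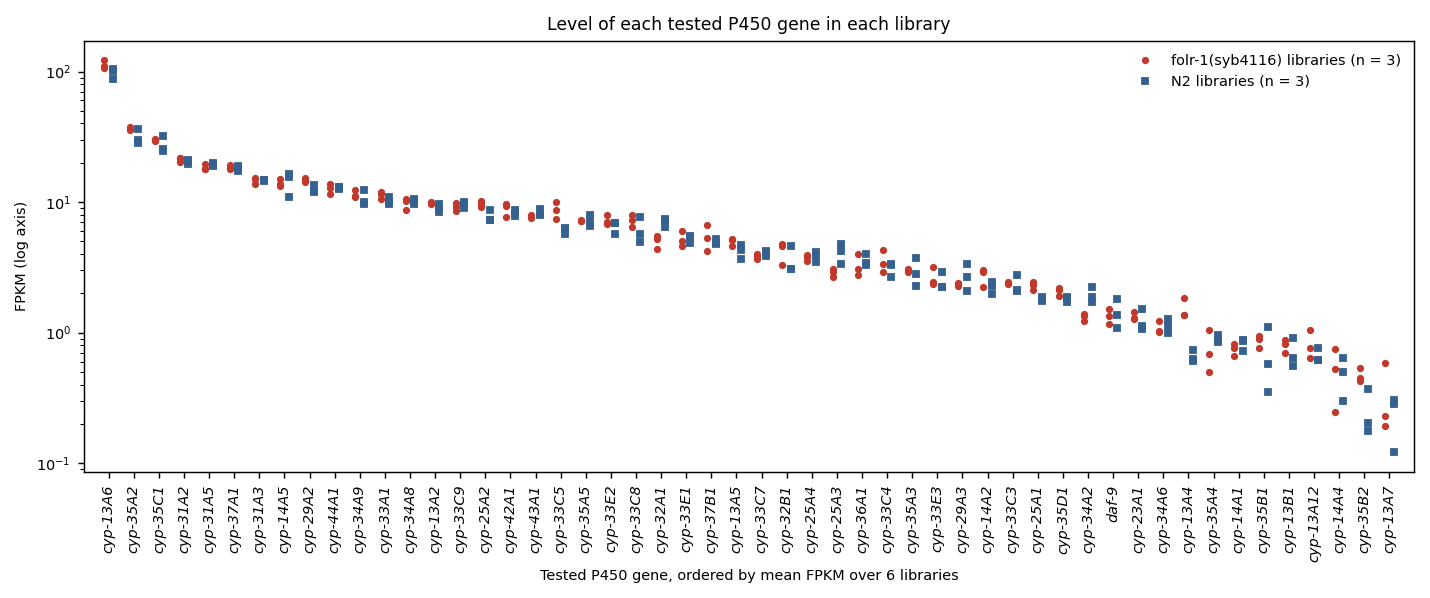
FPKM (log axis) of the 52 tested P450 genes in each of the 3 folr-1(syb4116) libraries (red circles) and the 3 N2 libraries (blue squares), ordered by the mean over 6 libraries. The order is led by cyp-13A6 at a mean of 105 FPKM, and for most genes the red and blue points overlap.

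The untested members included the whole 33B and 33D subfamilies, *cyp-33B1*, *cyp-33D1* and *cyp-33D3*, and the highest count of any untested member in any library was 19. The xenobiotic-inducible genes *cyp-35A1* and *cyp-14A3* were among them. There were 4, 6 and 4 counts for *cyp-35A1* in the *folr-1(syb4116)* libraries, against 11, 5 and 6 in the N2 libraries, and the strains overlapped. There were 0, 0 and 0 counts for *cyp-14A3* in the *folr-1(syb4116)* libraries, against 5, 1 and 0 in the N2 libraries, too few to compare. No read was counted on *cyp-35B3* in any library, and 0 of 140749064 counts allows a level of up to 0.0213 CPM, a limit that covers counting error only.

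Between the strains, 3 of the 52 tested members were called higher in *folr-1(syb4116)* and 2 were called lower (edgeR's quasi-likelihood test, Benjamini-Hochberg adjusted p under 0.05 over all 15432 tested genes). The higher genes were *cyp-13A4*, *cyp-33C5* and *cyp-13A6*, and the lower genes were *cyp-32A1* and *cyp-25A3*. The higher members made up 5.77% of those tested, against 3.64% of all tested genes, and the lower members 3.85%, against 3.32%, so that both shares lay near the background. A log2 fold change above 0 was found for 34 of the 52 genes, or 65.4%, against 50.7% of all tested genes, and the P450 median was 0.11, against 0.0028 over all tested genes. The P450 median was 0.051 when *folr-1(syb4116)* replicate 2 was left out, 0.056 when N2 replicate 2 was and 0.060 when N2 replicate 3 was, and it was 0.071 on the log2(FPKM + 1) scale. The strains did not overlap for 11 members: 8 lay above all N2 libraries, which is 15.4% of those tested against 12.3% of all tested genes, and 3 lay below, which is 5.77% against 12.9%. At an unadjusted p under 0.05 there were 11 members, or 21.2% of those tested, against 20.2% of all tested genes, which is about the background. The gene *cyp-35B2* counts in the 34, the 8 and both sets of 11, and it passed the filter on low counts through its mutant libraries. Of the 5 called genes only *cyp-13A4* was called without *folr-1(syb4116)* replicate 2, and likewise with limma on log2(FPKM + 1) or with a log2 fold change over 1 and an adjusted p under 0.005 required.

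**Figure D2:**
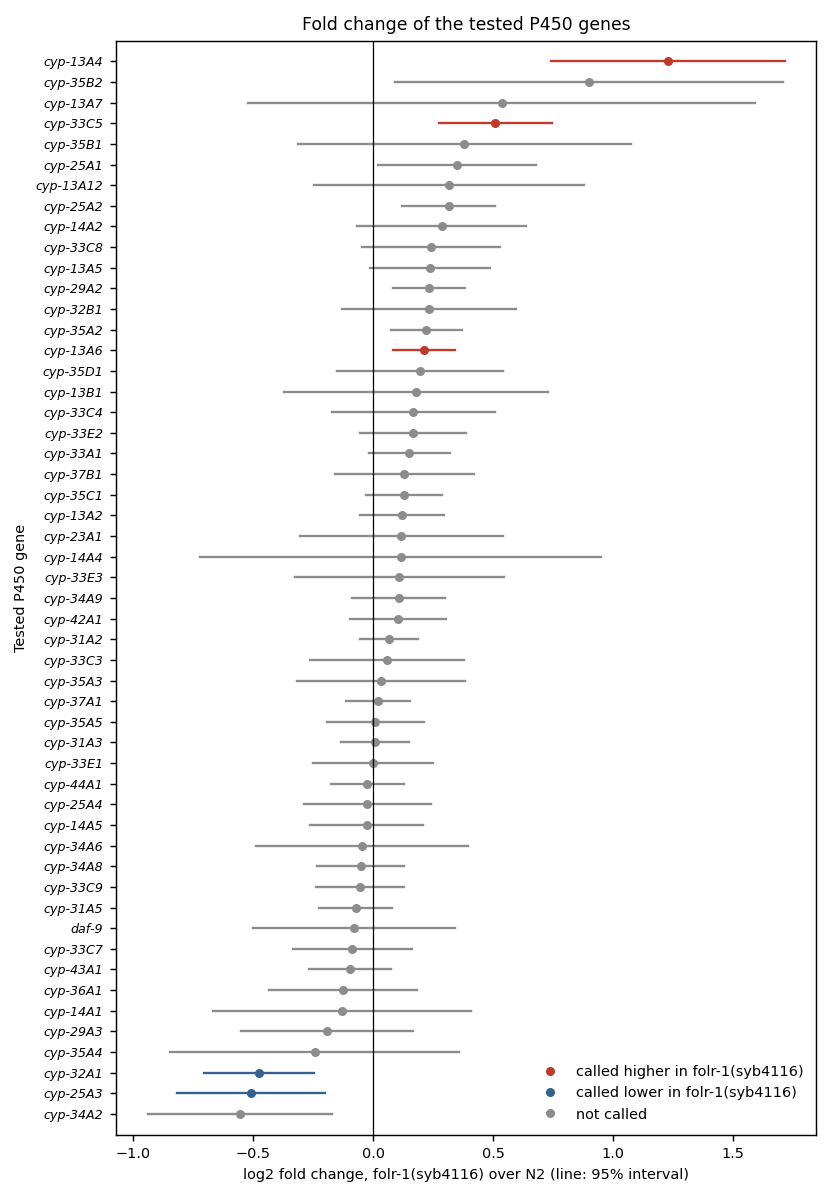
Log2 fold change of the 52 tested P450 genes, folr-1(syb4116) over N2, with 95% intervals from edgeR's quasi-likelihood fit (horizontal lines). Red marks the 3 genes called higher, blue the 2 called lower and grey the 47 not called, and only cyp-13A4 lies past 1 on this scale.

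The gene with the largest fold change among the tested members was *cyp-13A4* (T10B9.1, WBGene00011671), one of a tandem group of CYP3A-like genes on chromosome II, at 9795756 to 9797740 on the reverse strand in WBcel235. Its level was 2.89, 2.15 and 2.14 CPM in the *folr-1(syb4116)* libraries, against 1.14, 0.988 and 0.949 CPM in the N2 libraries, from 74, 52 and 46 counts in the mutant and 25, 22 and 24 counts in N2. All mutant libraries lay above all N2 libraries, with *folr-1(syb4116)* replicate 1 the highest. This is a 2.34-fold higher level, with a log2 fold change of 1.23 and a standard error of 0.23 (adjusted p = 0.00274, edgeR). It was called without each library in turn, with log2 fold changes of 1.07 to 1.31 (adjusted p from 0.00567 to 0.0201). Its level was low, at 1.53 ± 0.273 FPKM in *folr-1(syb4116)* and 0.655 ± 0.0667 FPKM in N2 (SD, n = 3 each).

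The most abundant P450 gene, *cyp-13A6* (T10B9.3, WBGene00011673), lies in the same group, at 9800758 to 9802821 on the reverse strand. It had 182, 202 and 177 CPM in the *folr-1(syb4116)* libraries, against 144, 167 and 174 CPM in the N2 libraries. The strains did not overlap, but the lowest mutant library and the highest N2 library were close. The log2 fold change was 0.21 with a standard error of 0.061, a 1.16-fold higher level (adjusted p = 0.0470, edgeR). The call was lost in 5 of the 6 fits that left out a library, all but the fit without N2 replicate 3, with adjusted p from 0.0540 to 0.199. It was also lost when at least 10 counts were required in every library (adjusted p = 0.0531). An annotated non-coding RNA, T10B9.13, overlaps *cyp-13A6* by 144 bp on the opposite strand, where reads could be shared, since the library descriptions name both directional and non-directional preparation.

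The group on chromosome II runs from 9779181 to 9807569 and holds 8 members, *cyp-13A1* to *cyp-13A8*, of which 5 were tested. Each of these 5 had a log2 fold change above 0. Between *cyp-13A4* and *cyp-13A6* lies *cyp-13A5*, with a log2 fold change of 0.24 (95% interval -0.02 to 0.49, adjusted p = 0.280), and *cyp-13A2* had 0.12 (95% interval -0.06 to 0.29, adjusted p = 0.467). The rifampicin-inducible gene *cyp-13A7* had 8, 23 and 8 reads in the *folr-1(syb4116)* libraries, against 10, 11 and 5 in the N2 libraries, with overlapping strains. A ratio of neighbouring genes within a library does not depend on how libraries are scaled. Relative to the *cyp-13A5* count, *cyp-13A4* had ratios of 0.329, 0.280 and 0.251 in *folr-1(syb4116)*, against 0.159, 0.161 and 0.121 in N2. These ratios did not overlap between the strains. With 3 libraries a strain the two-sided exact permutation test cannot go below its value here of p = 0.1, which became 0.117 after Benjamini-Hochberg adjustment over the 7 ratios computed, all of them chosen after the values had been seen. A separate member of the subfamily on chromosome III, *cyp-13A12*, which acts in the locomotory response to reoxygenation, had 1.76, 1.28 and 1.07 CPM in *folr-1(syb4116)* and 1.28, 1.03 and 1.03 CPM in N2. Its strains overlapped, and its log2 fold change of 0.31 had a 95% interval of -0.25 to 0.88.

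The next higher gene was *cyp-33C5* (F41B5.3, WBGene00018261), on chromosome V at 2245004 to 2247029 on the forward strand. Its level was 11.5, 15.5 and 13.5 CPM in the *folr-1(syb4116)* libraries, against 9.65, 9.88 and 8.94 CPM in the N2 libraries. All mutant libraries were above all N2 libraries, with replicate 2 of the mutant the highest. The level was 1.42-fold higher, with a log2 fold change of 0.51 and a standard error of 0.11 (adjusted p = 0.00859, edgeR). Without *folr-1(syb4116)* replicate 2 the log2 fold change was 0.39 and the adjusted p was 0.0549. The gene sits in a run of 5 members of the 33C subfamily, from 2236140 to 2252591, of which *cyp-33C3*, *cyp-33C4* and *cyp-33C7* were also tested. Their log2 fold changes were 0.06, 0.17 and -0.09, and none was called (adjusted p of 0.882, 0.619 and 0.745). Relative to *cyp-33C7* in the same library, *cyp-33C5* had 2.09, 2.59 and 2.34 times the count in *folr-1(syb4116)*, against 1.55, 1.71 and 1.41 times in N2, with no overlap (the same exact test, p = 0.1, adjusted p = 0.117). Relative to *cyp-33C4* the ratios of *cyp-33C5* overlapped between the strains (p = 0.2 in the same exact test, adjusted p = 0.2).

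Of the lower genes, *cyp-32A1* (C26F1.2, WBGene00016147) lies on chromosome V at 7781811 to 7784594 on the forward strand, and belongs to a family related to the CYP4 enzymes of fatty acid hydroxylation. It had 9.38, 7.42 and 8.83 CPM in the *folr-1(syb4116)* libraries, against 12.3, 10.9 and 12.5 CPM in the N2 libraries. All mutant libraries were below all N2 libraries. The mutant had 0.719 of the N2 level, with a log2 fold change of -0.48 and a standard error of 0.11 (adjusted p = 0.0111, edgeR). Without *folr-1(syb4116)* replicate 2, the lowest library, the log2 fold change was -0.38 and the adjusted p was 0.0586. Its relative *cyp-32B1* had a log2 fold change of 0.23 (95% interval -0.13 to 0.60) and was not called.

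The other lower gene, *cyp-25A3* (C36A4.3, WBGene00014697), lies on chromosome III at 3837538 to 3839735 on the reverse strand. Its level was 4.18, 4.81 and 4.56 CPM in the *folr-1(syb4116)* libraries, against 6.59, 7.50 and 5.26 CPM in the N2 libraries, and the strains did not overlap. The log2 fold change was -0.51 with a standard error of 0.15, or 0.702 of the N2 level (adjusted p = 0.0443, edgeR). The call was lost in 5 of the 6 fits that left out a library, all but the fit without N2 replicate 3, with adjusted p from 0.0709 to 0.211, and also with DESeq2 (adjusted p = 0.0660) and limma-voom (adjusted p = 0.0620). The neighbouring genes of the subfamily had fold changes of the other sign. There, *cyp-25A2* had 358, 352 and 331 counts in *folr-1(syb4116)*, against 241, 248 and 331 counts in N2. After scaling its libraries did not overlap, but it lay just outside the threshold with a log2 fold change of 0.31 (adjusted p = 0.0512), and past it without N2 replicate 3 (adjusted p = 0.0236). In *cyp-25A1* the levels were 3.75, 3.98 and 3.44 CPM in *folr-1(syb4116)*, against 3.07, 2.87 and 2.85 CPM in N2, again without overlap and not called (log2 fold change 0.35, adjusted p = 0.212).

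Within each library, *cyp-25A3* had 0.299, 0.330 and 0.296 times the count of *cyp-25A2* in *folr-1(syb4116)*, against 0.598, 0.673 and 0.402 times in N2. The log2 difference between the strains in this ratio was -0.82, and relative to *cyp-25A1* it was -0.85, both without overlap (the same exact test, p = 0.1, adjusted p = 0.117). These neighbours lie within 3832591 to 3839735, and in each library of the mutant *cyp-25A3* made up a smaller part of the 3 than in any N2 library. The next member along the chromosome, *cyp-25A4*, had a log2 fold change of -0.02 (95% interval -0.29 to 0.24).

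**Figure D3:**
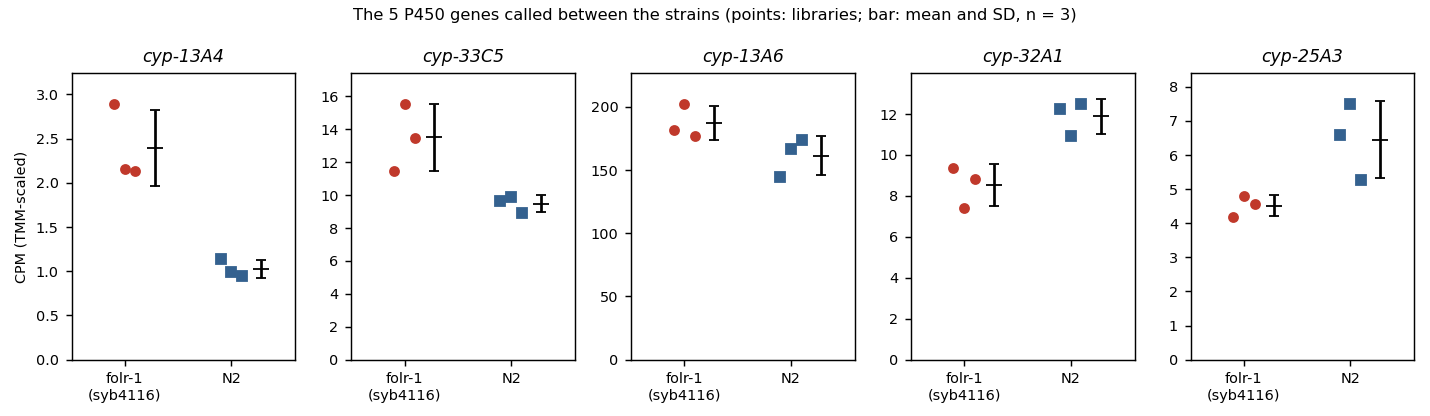
CPM of the 5 P450 genes called between the strains in each folr-1(syb4116) library (red circles) and each N2 library (blue squares), with the mean and SD of 3 libraries beside the points. The strains do not overlap in any panel, and the fold is largest for cyp-13A4, at 2.40 CPM in folr-1(syb4116) and 1.03 CPM in N2.

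Many members are clustered in the genome. With a gap of at most 10 kb between members, 44 of the 75 genes lay in 12 arrays of 2 to 10 genes. The largest array, on chromosome V from 3936326 to 3972991, joins the 35B genes and *cyp-35A5* to 34A genes, and 0 of its 6 tested members were called. Its log2 fold changes ran from -0.05 to 0.90. The highest was that of *cyp-35B2*, with 17, 17 and 18 reads in the *folr-1(syb4116)* libraries, against 6, 13 and 8 in the N2 libraries. The strains did not overlap, but *cyp-35B2* was not called (log2 fold change 0.90, adjusted p = 0.189), and it passed the filter through its mutant libraries. For *cyp-14A4*, with 29, 19 and 8 counts in *folr-1(syb4116)* and 21, 10 and 19 in N2, only replicate 3 of the mutant lay under the filter's cutoff. In the array of 14A genes on chromosome X, 3 members were tested and 0 called.

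**Figure D4:**
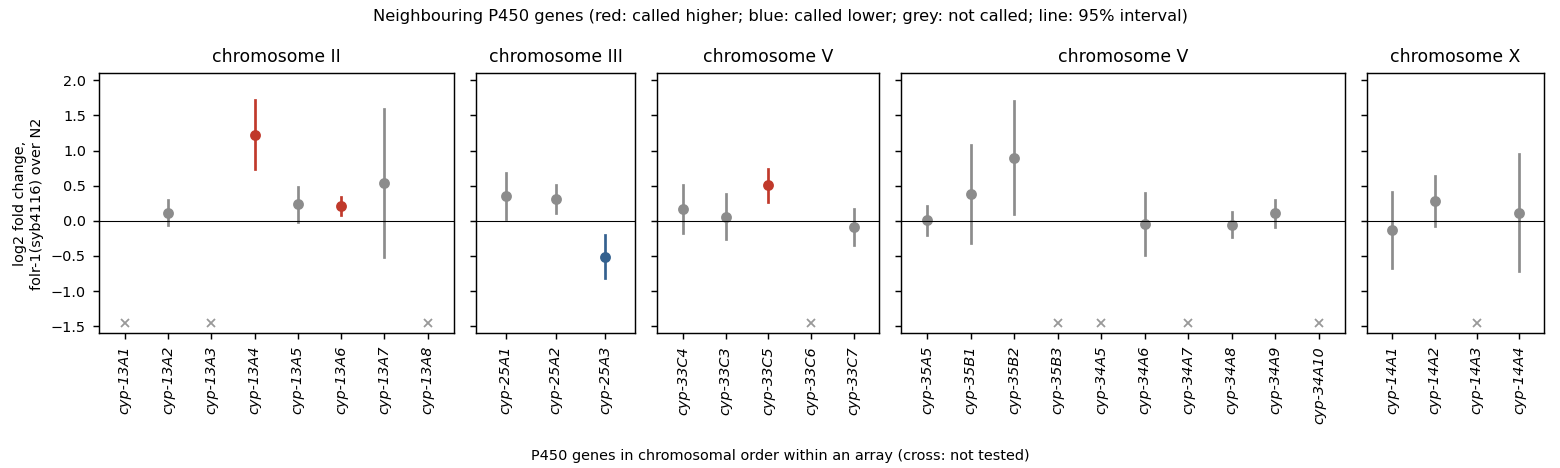
Log2 fold change, folr-1(syb4116) over N2, of P450 genes in the 5 arrays with 3 or more members, in chromosomal order, with 95% intervals (vertical lines) and crosses for genes that were not tested. In the array on chromosome II the called genes cyp-13A4 and cyp-13A6 flank cyp-13A5, and on chromosome III cyp-25A3 lies below 0 while cyp-25A1 and cyp-25A2 lie above.

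The P450 of steroid hormone synthesis, *daf-9*, makes dafachronic acids, the ligands of the nuclear receptor DAF-12 that commit larvae to reproductive growth. It had 2.78, 3.15 and 2.42 CPM in the *folr-1(syb4116)* libraries, against 2.24, 2.83 and 3.72 CPM in the N2 libraries. The strains overlapped, with the highest and the lowest value both in N2. Its log2 fold change was -0.08, with a 95% interval of -0.50 to 0.34 (adjusted p = 0.872). Of the 7 other tested genes of dafachronic acid synthesis, sterol supply and response, 0 were called with edgeR, 0 with DESeq2 and 1 was under an unadjusted p of 0.05, against 20.2% of all tested genes, with a median log2 fold change of 0.06. Among them, *daf-36*, a Rieske oxygenase acting on cholesterol ahead of *daf-9*, had a log2 fold change of -0.03 (adjusted p = 0.852), and *daf-12* had 0.11 (adjusted p = 0.308).

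The genes *cyp-33E1*, *cyp-33E2*, *cyp-29A2* and *cyp-29A3* were not called. Of these, *cyp-33E2* is expressed in the pharynx and its enzyme acts on eicosapentaenoic acid, and *cyp-29A3* acts on the same kind of substrate. Counts of *cyp-33E2* were 276, 271 and 271 in *folr-1(syb4116)*, against 238, 244 and 229 in N2, and after scaling to library size the strains overlapped. The log2 fold change was 0.16 for *cyp-33E2* (95% interval -0.06 to 0.39), -0.00064 for *cyp-33E1* (95% interval -0.25 to 0.25) and -0.19 for *cyp-29A3* (95% interval -0.55 to 0.16). The fourth gene of this group, *cyp-29A2*, lay just outside the threshold. It had 24.8, 26.7 and 25.5 CPM in the *folr-1(syb4116)* libraries, against 21.0, 20.8 and 23.6 CPM in the N2 libraries, with no overlap and a log2 fold change of 0.23 (adjusted p = 0.0575). Without N2 replicate 3 the adjusted p of *cyp-29A2* was 0.0267. The epoxide hydrolase genes *ceeh-1* and *ceeh-2*, whose products hydrolyse fatty acid epoxides, were not called either, with log2 fold changes of -0.05 and 0.13.

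Members of the 35 family respond to xenobiotics, and 35A genes are linked to intestinal fat storage. None of the 8 tested genes of the family was called. The most abundant, *cyp-35A2*, had 57.4, 58.9 and 61.2 CPM in the *folr-1(syb4116)* libraries, against 58.2, 45.5 and 48.7 CPM in the N2 libraries. N2 replicate 1 lay within the mutant range and the other N2 libraries below it, and the log2 fold change was 0.22 (adjusted p = 0.0671). Without N2 replicate 1 the log2 fold change of *cyp-35A2* was 0.33 and the adjusted p was 0.00154. The same library was the highest for *cyp-35C1*, with 45.4, 47.3 and 46.2 CPM in *folr-1(syb4116)*, against 49.4, 39.5 and 38.4 CPM in N2. The log2 fold change of *cyp-35C1* was 0.13 over all libraries (adjusted p = 0.367) and 0.25 without N2 replicate 1 (adjusted p = 0.0135). N2 replicate 1 was likewise the highest N2 library for *cyp-35A3*, *cyp-35A5* and *cyp-35B1*, with 5.86, 12.6 and 1.88 CPM, and also for *cyp-35A4*, but it was the lowest N2 library for *cyp-35B2* and the middle one for *cyp-35D1*. Levels of *cyp-35D1* were 2.89, 3.32 and 3.25 CPM in *folr-1(syb4116)*, against 2.79, 2.60 and 2.85 CPM in N2, without overlap and not called (log2 fold change 0.20, adjusted p = 0.554). Log2 fold changes were 0.03 for *cyp-35A3* (95% interval -0.32 to 0.38), 0.01 for *cyp-35A5* (95% interval -0.19 to 0.21), -0.24 for *cyp-35A4* (95% interval -0.85 to 0.36) and 0.38 for *cyp-35B1* (95% interval -0.32 to 1.08).

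The 31A genes were not called. Of these, *cyp-31A2* and *cyp-31A3* are redundant with each other and act together with EMB-8 in forming the lipid-rich layer of the eggshell. Counts of *cyp-31A2* were 887, 789 and 756 in *folr-1(syb4116)*, against 738, 734 and 790 in N2, with overlap. Log2 fold changes were 0.07 for *cyp-31A2* (95% interval -0.06 to 0.19), 0.01 for *cyp-31A3* (95% interval -0.14 to 0.15) and -0.07 for *cyp-31A5* (95% interval -0.23 to 0.08). As near-identical paralogues, *cyp-31A2* and *cyp-31A3* may share reads.

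Single members with other roles gave similar values. The mitochondrial P450 gene *cyp-44A1* had a log2 fold change of -0.02 (95% interval -0.18 to 0.13), and its annotation overlaps *npp-24* by 106 bp on the same strand. *cyp-37A1* had 0.02 (95% interval -0.11 to 0.15), and *cyp-37B1*, whose *folr-1(syb4116)* replicate 2 stood above the other 5 libraries at 11.1 CPM, had 0.13 (95% interval -0.16 to 0.42). *cyp-36A1*, which acts downstream of the hypoxia factor HIF-1 in stress resistance, had -0.13 (95% interval -0.44 to 0.18), and *cyp-42A1* had 0.10 (95% interval -0.10 to 0.30). The levels of *cyp-14A5* spanned 21.3 to 23.9 CPM in *folr-1(syb4116)* and the wider range of 17.3 to 26.1 CPM in N2, with a log2 fold change of -0.03. Of the tested members 7 overlap another protein-coding gene, none of them among the 5 called. The member with the lowest log2 fold change was *cyp-34A2*, with 1.95, 2.11 and 2.19 CPM in *folr-1(syb4116)*, against 3.52, 2.96 and 2.73 CPM in N2. Its strains did not overlap, but it was not called (log2 fold change -0.56, adjusted p = 0.0790). Among the 52 tested members, the 95% interval lay wholly within a 2-fold change for 48 and within a 1.5-fold change for 36.

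Summed over all 75 genes, P450 transcripts took 746 to 782 CPM in the *folr-1(syb4116)* libraries, against 698 to 718 CPM in the N2 libraries. The mean was 764 ± 18.0 CPM in *folr-1(syb4116)* and 708 ± 10.1 CPM in N2 (SD, n = 3 each), a ratio of 1.08. Without *cyp-13A6*, which made up 23.7% of the sum, the ratio was 1.06, and without the 5 called genes it was also 1.06. The intestine markers (*elt-2*, *ges-1*, *ifb-2*, *act-5*, *vha-6* and *pept-1*) moved in the same direction, with sums of 2700 to 2844 CPM in the *folr-1(syb4116)* libraries, against 2529 to 2675 CPM in the N2 libraries, a ratio of 1.08. Log2 fold changes were above 0 for 6 of these 6 markers, and 2 (33.3%) were called higher, against 3.64% of all tested genes. These 2, *act-5* and *ifb-2*, made up much of the difference. Their means were 1433 and 464 CPM in *folr-1(syb4116)*, against 1308 and 409 CPM in N2. The strains overlapped for *vha-6*, *pept-1* and *ges-1*, with log2 fold changes of 0.01, 0.06 and 0.06. They did not overlap for *elt-2*, with 0.23 (adjusted p = 0.0575, edgeR). Hypodermis markers also had higher sums, with 306 to 328 CPM in the *folr-1(syb4116)* libraries, against 260 to 291 CPM in the N2 libraries, a ratio of 1.14, with 1 of 5 markers called higher. That marker, *rol-6*, made up much of the difference, with means of 167 CPM in *folr-1(syb4116)* and 133 CPM in N2. The uncalled hypodermis markers had log2 fold changes from -0.10 (*elt-3*) to 0.10 (*lin-26*). In whole animals, fewer cells of a type and less RNA per cell cannot be told apart, and the part of the intestine and hypodermis markers in the P450 sum was not tested. Other sums were lower in the mutant. Pharynx markers summed to 536 ± 21.3 CPM in *folr-1(syb4116)* and 623 ± 7.24 CPM in N2, body wall muscle markers summed to 7623 ± 501 CPM in *folr-1(syb4116)* and 8957 ± 36.4 CPM in N2, and male-associated markers to 2.93 ± 0.413 CPM in *folr-1(syb4116)* and 11.8 ± 1.21 CPM in N2 (SD, n = 3 each). Much of the muscle sum was *unc-54*, with means of 4598 CPM in *folr-1(syb4116)* and 5607 CPM in N2. Much of the pharynx sum was *myo-2*, with 293 and 337 CPM. Log2 fold changes were below 0 for 3 of 5 pharynx and 4 of 5 body wall muscle markers. Those above 0, none of them called, were *pha-4* (0.04), *ceh-22* (0.50) and *hlh-1* (0.18). Of the 5 tested male-associated markers 4 were called lower, and *lov-1* and *clec-207* were at 0 in a mutant library each. The largest part of the drop was *clec-207*, with means of 0.122 CPM in *folr-1(syb4116)* and 5.11 CPM in N2. The list that holds it was chosen with earlier results of these data known. The untested *trf-1* was not lower, at 0.205 CPM in *folr-1(syb4116)* and 0.187 CPM in N2. The part of these markers in the lower P450 genes was not tested.

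The electron supply of the P450s was read from 6 genes, all tested, and the chain that serves mitochondrial P450s was not among them. The cytochrome b5 gene *cytb-5.1*, whose product can pass electrons to P450s, was called higher, with 1707, 1526 and 1406 reads in the *folr-1(syb4116)* libraries, against 1178, 1249 and 1457 reads in the N2 libraries. Its log2 fold change was 0.22 (adjusted p = 0.00655, edgeR). The others were not called. The gene with the largest change in size among them was T05H4.4, with 9, 8 and 6 counts in *folr-1(syb4116)*, against 13, 20 and 15 counts in N2. Its strains did not overlap, and its log2 fold change was -1.09 (adjusted p = 0.111). The P450 reductase gene *emb-8* had 4334, 4402 and 3792 counts in *folr-1(syb4116)*, against 3886, 3812 and 4303 counts in N2, and a log2 fold change of 0.03 (adjusted p = 0.794). Haem transport genes, which matter because the worm makes no haem, numbered 8 tested, of which 0 were called with edgeR, 0 with DESeq2 and 2 were under an unadjusted p of 0.05, where 20.2% of all tested genes lay. Without N2 replicate 2, 1 haem transport gene was called. Their median log2 fold change was 0.06. Of 9 regulators tied to P450 expression, among them *nhr-8*, *mdt-15*, *skn-1*, *hif-1* and *ahr-1*, 0 were called with edgeR, 0 with DESeq2 and 1 was under an unadjusted p of 0.05, against the same 20.2%, with a median log2 fold change of 0.09.

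Conjugating enzymes act after P450s in detoxification. Over all tested genes, 3.64% were called higher and 3.32% lower. Of 57 tested UDP-glucuronosyltransferase genes 1 (1.75%) was higher and 1 (1.75%) was lower, with a median log2 fold change of -0.06. Of 37 tested glutathione S-transferase genes 3 (8.11%) were higher and 0 lower, with a median of 0.04. Differences between these families and the P450 genes were not tested.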

How the data were processed

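RNA from whole L4 larvae was sequenced by the authors, who ran fastp, HISAT2 and featureCounts (build WBcel235; versions and annotation release are not given in the sources used here). They deposited raw read counts per gene and FPKM values, called RPKM in the methods and made from counts and gene length. Symbols and positions came from the Ensembl WBcel235 annotation, where 45624 of 46661 genes matched 1 gene.

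Strains were compared with edgeR 4.0.16 under R 4.3.3 (filterByExpr, TMM, glmQLFit, glmQLFTest, strain as the only term), and figures and exact tests made in Python 3.11.15 with matplotlib 3.10.9 and scipy 1.17.1. P-values were adjusted by Benjamini-Hochberg over 15432 tested genes, with a threshold of 0.05. Standard errors were derived from each gene's log2 fold change and F statistic, since the test gives none. The 95% intervals used them with 16.1 degrees of freedom, the median over genes, and are approximate. On counts simulated with the same spread between replicates for every gene (coefficient of variation 0.0498), 199 of 200 genes changed 2-fold were recovered, with 9 false calls. Only genes above a minimum mean count were changed. Recovery of smaller changes, or of genes with few reads, was therefore not measured, nor were false calls where the spread differs between genes. Libraries of the same strain differed by more than sampling of reads gives, with chi-square values of 3.28 to 8.60 times the degrees of freedom.

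Alternatives were DESeq2 1.42.0, relative log expression factors, limma-voom (limma 3.58.1), limma on FPKM as log2 with a pseudocount of 1 or 0.1, no filter, a minimum of 10 counts per library, a replicate block, each library left out, and the stricter threshold of the methods (adjusted p under 0.005, absolute log2 fold change over 1). Named members were those called, the 10 highest by FPKM, the 5 uncalled with the smallest p and those with known roles; *cyp-14A4*, *cyp-25A1*, *cyp-25A4*, *cyp-33B1*, *cyp-33D1*, *cyp-33D3*, *cyp-35B3*, *cyp-35D1*, the redox gene T05H4.4, *cyp-32B1*, *cyp-13A2*, *cyp-13A5* and the neighbours of *cyp-33C5* were named after their values were seen. Members and lists were chosen with earlier results of these data known. The marker lists covered intestine, hypodermis, body wall muscle, pharynx, neurons, males and yolk. Of 5 tested genes each, 1 hypodermis gene was higher, 2 pharynx genes were lower, 1 yolk gene was higher and 0 neuron genes were called by edgeR or DESeq2 (1 under an unadjusted p of 0.05); body wall muscle had 2 lower genes.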

Additional observations from a re-analysis of the deposited data

How the results depend on the processing

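The 23 untested members had too few counts for a change to be assessed. The number of P450 genes called higher was 3. It became 6 with no filter on low counts and 2 when at least 10 counts were required in every library. It was 1 with limma on log2(FPKM + 1), 1 with limma on log2(FPKM + 0.1) and 1 with the stricter threshold, and ranged from 1 to 6 when a library was left out. The number called lower was 2, and became 1 with DESeq2, 1 with limma-voom, 0 with limma on log2(FPKM + 1), 0 with limma on log2(FPKM + 0.1) and 0 with the stricter threshold, and ranged from 0 to 2 when a library was left out. Relative log expression factors changed no call. The gene *cyp-13A4* was called under each alternative. Of the libraries left out, *folr-1(syb4116)* replicate 2 gave the fewest calls, 1 higher and 0 lower, and N2 replicate 3 the most, 6 higher and 2 lower. The cause of these shifts was not tested.

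With a replicate block, 3 genes were called higher and 1 lower, since *cyp-25A3* had an adjusted p of 0.0583. The replicate numbers are not known to pair the libraries, and same-numbered libraries did not deviate together (correlations of -0.023, -0.045 and 0.013).

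Some uncalled genes changed sign. With no filter on low counts *cyp-33E1* had a log2 fold change of 0.0028. With a library left out, log2 fold changes ran from -0.016 to 0.055 for *cyp-37A1*, -0.020 to 0.050 for *cyp-31A3*, -0.19 to 0.088 for *cyp-14A5*, -0.080 to 0.036 for *cyp-44A1*, -0.24 to 0.14 for *daf-9*, -0.11 to 0.078 for *cyp-33E1*, -0.14 to 0.84 for *cyp-13A7*, -0.12 to 0.24 for *cyp-35A3*, -0.057 to 0.082 for *cyp-35A5* and -0.054 to 0.28 for *cyp-37B1*.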
